A study of Mus musculus with 4 samples.

Results

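Cell adhesion molecules of the immunoglobulin and cadherin families were followed through 8 listed genes, Vcam1, Icam1, Icam5, Ncam1, Alcam, Mcam, Cdh2 and Cdh11, in a mouse line called 3T3 and given in the labels as pre-osteoblasts. The genes were taken from a fixed list and matched by Ensembl identifier. All 8 were among the 12208 genes of the deposited table, and all 8 were among the 12160 genes tested, those with a mean of at least 1 CPM (counts per 1000000). The study compared untreated control cells at 24 h and at 48 h with cells given recombinant LTα1β2 (LTAlpha1Beta2 in the labels), a membrane-type lymphotoxin of the TNF superfamily, for 24 h or 48 h. Each of these 4 groups was 1 library of total RNA from the same line, and the labels name no genetic change. The list was drawn up with earlier results of these data known.

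Adhesion molecules of the immunoglobulin family are cell-surface proteins built of repeated immunoglobulin domains. VCAM-1 and ICAM-1 are bound by integrins of white blood cells, and in endothelium and stroma their genes are classic targets of NF-κB, which receptors of the TNF family, the lymphotoxin β receptor among them, activate. NCAM, ALCAM and MCAM join cells to like or unlike partners on neighbouring cells. Classical cadherins such as N-cadherin and cadherin-11 hold like cells together in the presence of calcium, through catenins that tie them to actin, and both of those are well known in cells of the osteoblast lineage.

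Icam1 and Icam5 are neighbours. By the GENCODE M21 annotation of GRCm38 (the build behind the table is not given in the sources used here), Icam1 lies on the plus strand of chromosome 9 from 21015985 to 21028817. Icam5 follows on the same strand from 21032073 to 21039036, with 3255 bases between them that hold Icam4. Both were at least 2-fold higher in treated cells at both times, so the 250 bases before each start are shown. They come from RefSeq (GRCm38.p6), are written 5′ to 3′ on the plus strand, and span chr9:21015690-21015939 for Icam1 and chr9:21031788-21032037 for Icam5. Capitals mark a match to GGAANTTCC, a pair of inverted Rel half-sites with 1 base between them as in the NF-κB site known from the human ICAM1 promoter, a motif chosen after the sequence had been seen.
Icam1: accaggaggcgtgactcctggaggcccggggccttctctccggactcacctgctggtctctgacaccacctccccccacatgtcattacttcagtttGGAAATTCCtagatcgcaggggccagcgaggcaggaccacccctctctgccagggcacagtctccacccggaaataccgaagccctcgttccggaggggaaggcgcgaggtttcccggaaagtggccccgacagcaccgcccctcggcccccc
Icam5: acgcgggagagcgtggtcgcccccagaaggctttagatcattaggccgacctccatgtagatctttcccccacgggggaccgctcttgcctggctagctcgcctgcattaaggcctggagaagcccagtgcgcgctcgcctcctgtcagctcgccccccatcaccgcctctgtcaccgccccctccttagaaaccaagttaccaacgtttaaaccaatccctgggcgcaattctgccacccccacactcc
The capitals lie 153 to 145 bases before the RefSeq start of Icam1, and 198 to 190 bases before its GENCODE start. This palindromic motif was found in 267 of 32851 mouse promoters of the same length (0.813%), and not in that of Icam5. The longer NF-κB consensus, searched on both strands, is in 3.90% of those promoters and in neither of these. The AP-1 core TGANTCA (6.75% of promoters) was in neither, and the E-box CANNTG (66.2%) was found 2 times in Icam1 and 0 times in Icam5. Promoters of Alcam and Mcam were matched as well, each with 1 E-box and none of the other motifs. A match describes the letters and is not a measured site. Promoters of Vcam1, Ncam1 and Cdh11 were not matched, and that of Cdh2 was not used here.

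The libraries held 11355974 to 15995777 reads, as recovered from the CPM values. A fold is a ratio of CPM between 2 libraries, with an exact 95% interval that covers counting error only and not the spread between cultures, which 1 library per group cannot show. The only test, over all 12160 genes, was an additive limma model of time and treatment on log2(CPM + 1), in which 24 h and 48 h stand for repeats of the treatment; "rose" and "fell" mean past its Benjamini-Hochberg threshold of 0.05. The fit estimated an infinite prior, under which genes of like level share 1 spread. The LTα1β2 48 h library stood apart in transcript length: its read-weighted median was 2728 bases, against 3170 to 3245 in the other 3. Folds at 48 h declined with length (Spearman's rho = -0.466 across 12157 genes, against -0.0281 at 24 h; genes are not independent replicates). Of 12 osteoblast marker genes 10 were tested, with summed levels of 33080 to 33550 CPM in control and 20200 to 23650 CPM in treated cells. Of 9 mesenchymal markers 8 were tested, at 14010 to 14040 and 9133 to 11080 CPM. Among the 10 osteoblast markers 5 fell, and among the 8 mesenchymal ones 3 fell and 1 rose, where 2.27% of all genes fell and 2.92% rose. With median-of-ratios rescaling, and with the prior of that fit put on the deposited values, 3 osteoblast markers fell and no mesenchymal marker passed. Most of the osteoblast sum is Col1a1 and Col1a2, and Spp1 was higher in treated cells at both times (1430 against 1234 CPM at 24 h, 2210 against 1525 CPM at 48 h). Endothelial markers, 2 of 10 tested (Flt1 and Vwf), summed to 60.4 to 66.5 CPM in control and 66.3 to 88.7 CPM in treated cells, and leukocyte markers, 3 of 12 tested, to 65.1 to 75.4 and 57.4 to 85.9 CPM, nearly all from Lyz2. Pecam1, Cdh5 and Ptprc were not analysed here, and 0 of 7 epithelial markers were tested. Whether shifts in such markers play a part in the results below was not tested.

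Of the 8 adhesion genes, Vcam1, Icam1 and Icam5 rose with LTα1β2 and Alcam fell (Icam1 reached the level needed for testing only through its treated libraries), while Ncam1, Mcam, Cdh2 and Cdh11 did not pass the test. Over all genes 355 rose (2.92%) and 276 fell (2.27%). The share of the 8 genes is above this background, but part of the list was known to have risen when it was drawn up. By a rule of size, Icam1 and Icam5 were at least 2-fold higher at 24 h, as were 0.345% of all genes, and again at 48 h, as were 1.86%. With a pseudocount of 5 in place of 1 neither was 2-fold higher at either time. None of the 8 was 2-fold lower, against 0.181% of genes at 24 h and 0.715% at 48 h. In total RNA from a culture, fewer cells that express a gene and less of its RNA per cell cannot be told apart.

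**Figure D1:**
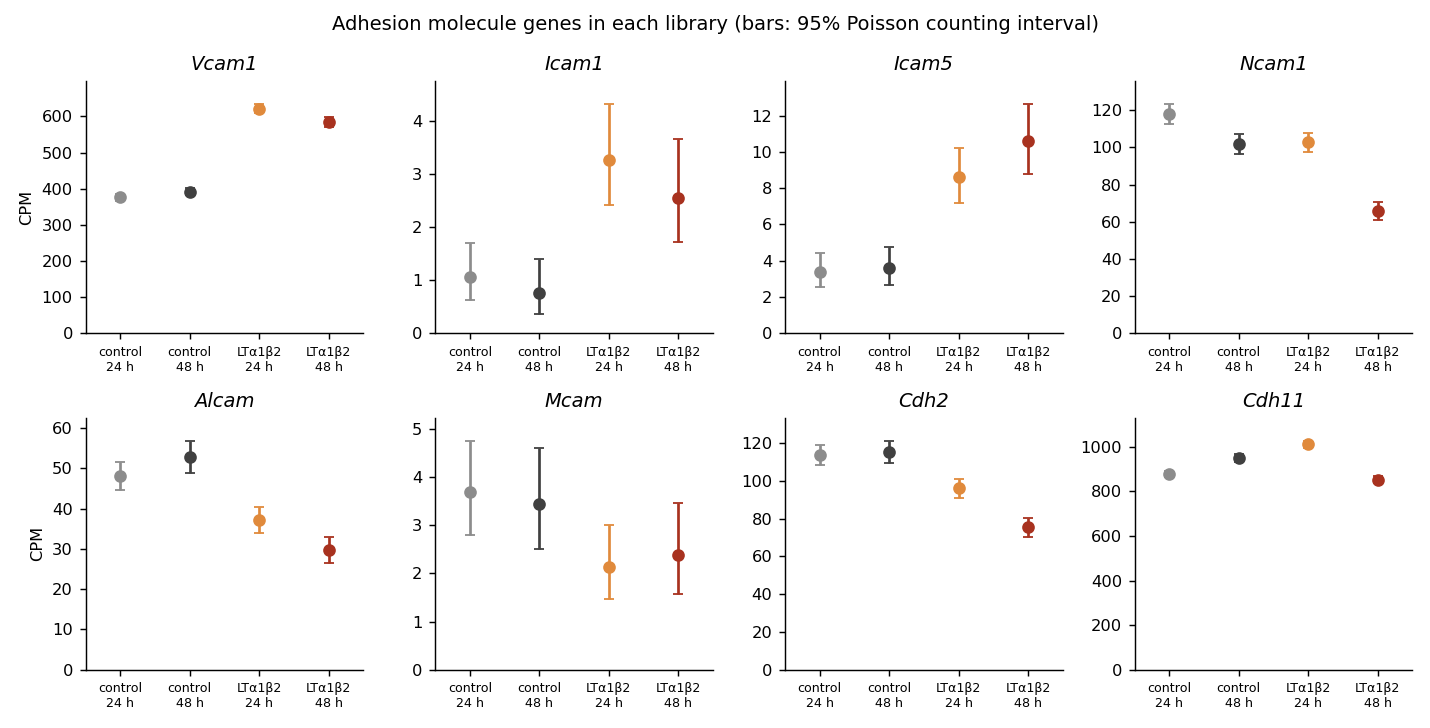
CPM of each of the 8 genes in the 4 libraries (1 point each; bars are 95% Poisson counting intervals; axes start at 0). Vcam1, Icam1 and Icam5 are higher in both treated libraries than in both controls, and Alcam, Mcam and Cdh2 are lower in both. Ncam1 is below both controls only in the treated 48 h library, and Cdh11 has its highest and its lowest value in the treated libraries. The share of all genes whose treated and control libraries lie apart was not counted, so such separation is a description.

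Vcam1 encodes the ligand of the integrin VLA-4. It stood at 376 CPM in control at 24 h, 392 CPM in control at 48 h, 622 CPM with LTα1β2 at 24 h and 585 CPM with LTα1β2 at 48 h. Both treated libraries were above both controls. How many of all genes lie apart in this way, above or below, was not counted, for Vcam1 or for the genes that follow. Treated cells had 1.66-fold more (1.60 to 1.71) at 24 h and 1.49-fold more (1.44 to 1.55) at 48 h. In the additive fit Vcam1 rose by 0.65 ± 0.18 (SE) on the log2 scale (limma, adjusted p = 0.00955). A further fit put 9.8 prior degrees of freedom, the estimate after median-of-ratios rescaling, on the deposited values. Each gene's own spread then enters, and the test has fewer degrees of freedom. The difference of Vcam1 was the same, its SE was 0.172 instead of 0.179, and the adjusted p was 0.164 (limma). In the rescaled fit itself it was 0.0424. Below, 9.8 prior degrees of freedom always means the deposited values with that prior. In GENCODE M21 Vcam1 lies on the minus strand of chromosome 3 from 116109949 to 116129688.

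Icam1 encodes the ligand of the leukocyte integrins LFA-1 and Mac-1. It was near the bottom of the table, at 1.06 CPM (17 reads) and 0.764 CPM (10 reads) in control at 24 h and 48 h, and at 3.27 CPM (49 reads) and 2.55 CPM (29 reads) with LTα1β2. The 2 groups did not overlap, and the few reads left wide intervals, 3.08-fold (1.74 to 5.70) at 24 h and 3.35-fold (1.58 to 7.69) at 48 h. Both control libraries were near the floor of the table, whose lowest value in control at 48 h was also 10 reads, and their mean was under 1 CPM, so Icam1 was tested only because its treated libraries were high. Its additive log2 fold of 1.03 ± 0.24 (SE; limma, adjusted p = 0.00129) is therefore a description. It depends on the pseudocount, at 1.45 with 0.25 and 0.42 with 5, and with 9.8 prior degrees of freedom the adjusted p was 0.0955.

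Icam5 encodes telencephalin, an ICAM best known from neurons of the forebrain. Its levels were 3.38 and 3.59 CPM in control (54 and 47 reads) and 8.61 and 10.6 CPM with LTα1β2 (129 and 120 reads) at 24 h and 48 h. Treated libraries were again above both controls, by 2.55-fold (1.84 to 3.57) at 24 h and 2.95-fold (2.09 to 4.22) at 48 h. The additive log2 fold was 1.23 ± 0.21 (SE; limma, adjusted p = 6.72e-07), and 0.78 with a pseudocount of 5. Icam5 was the only 1 of the 8 called with 9.8 prior degrees of freedom (adjusted p = 0.0216, limma), where 0.321% of all genes were called higher and 0.206% lower. Of neural or glial markers 1 of 7 was tested, Syt1, at 1.5 to 2.06 CPM over the 4 libraries. Gm47079, annotated as antisense, overlaps the end of Icam1 and the start of Icam5, and Gm26592 lies within Icam5 on the other strand. Neither was analysed here, and whether the counting used the strand is not given in the sources used here, so reads of these transcripts cannot be told apart from those of the 2 genes.

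**Figure D2:**
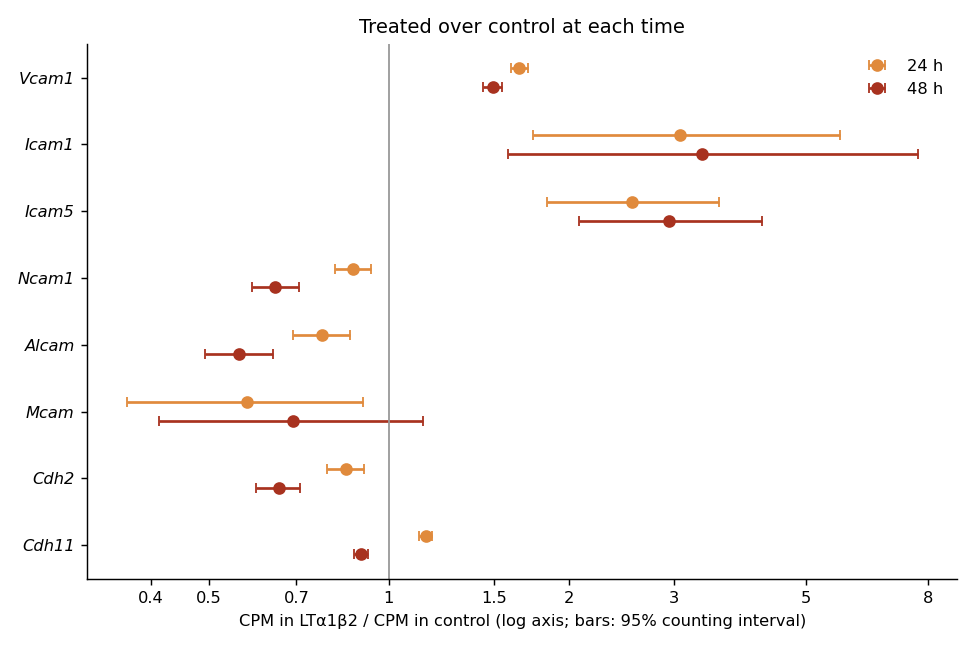
Ratio of CPM in treated cells to CPM in control for each gene at 24 h and at 48 h (log axis; bars are exact 95% counting intervals; the line marks no difference). Icam1 and Icam5 have the highest ratios with wide intervals from few reads, Vcam1 lies between 1.49 and 1.66, and the ratios of Ncam1, Alcam, Cdh2 and Cdh11 are all lower at 48 h than at 24 h.

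Alcam, Ncam1 and Mcam were below or near control. Alcam encodes the ligand of CD6, a T-cell surface protein, and also binds itself. Its level was 48.1 and 52.8 CPM in control and 37.1 and 29.7 CPM with LTα1β2 at 24 h and 48 h, so that both treated libraries lay below both controls. These are 0.772 (0.691 to 0.862) and 0.562 (0.492 to 0.641) of control. Alcam fell by 0.59 ± 0.17 (SE) on the log2 scale (limma, adjusted p = 0.0187). The call was lost with 9.8 prior degrees of freedom (adjusted p = 0.227, limma) and with median-of-ratios rescaling (0.0997), where 0.781% of all genes were called higher and 0.691% lower.

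Ncam1 encodes the neural cell adhesion molecule, which is also made by mesenchymal cells. It was at 118 and 102 CPM in control and at 103 and 65.6 CPM with LTα1β2 at 24 h and 48 h. The treated 24 h library lay between the controls, and only the treated 48 h library stood well below them. The ratios to control were 0.871 (0.814 to 0.932) and 0.646 (0.589 to 0.707), and the additive log2 fold was -0.41 ± 0.17 (SE; limma, adjusted p = 0.156). Without the LTα1β2 48 h library the log2 fold was -0.09.

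Mcam encodes MCAM, or CD146, known from endothelium, pericytes and stromal cells of bone marrow. It was low, at 3.69 and 3.44 CPM in control (59 and 45 reads) and at 2.14 and 2.38 CPM with LTα1β2 (32 and 27 reads). Both treated libraries were below both controls, at 0.579 (0.364 to 0.905) and 0.692 (0.413 to 1.14) of control. The difference at 48 h was within counting error, and the additive log2 fold was -0.49 ± 0.23 (SE; limma, adjusted p = 0.243), or -0.24 with a pseudocount of 5.

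The 2 cadherins differed from each other. Cdh2, which encodes N-cadherin, stood at 113 and 115 CPM in control and at 96.0 and 75.3 CPM with LTα1β2 at 24 h and 48 h. Both treated libraries were lower, at 0.846 (0.789 to 0.907) and 0.654 (0.60 to 0.711) of control, but the additive log2 fold of -0.42 ± 0.17 (SE) did not pass (limma, adjusted p = 0.137). Without the LTα1β2 48 h library it was -0.25. Cdh11, which encodes osteoblast cadherin, was the most abundant of the 8 genes, at 878 and 950 CPM in control and at 1012 and 853 CPM with LTα1β2. Its treated libraries lay on either side of both controls, at 1.15-fold (1.13 to 1.18) of control at 24 h and 0.897 (0.874 to 0.922) at 48 h. The additive log2 fold was 0.02 ± 0.19 (SE; limma, adjusted p = 0.975), a mean of 2 differences of opposite sign.

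**Figure D3:**
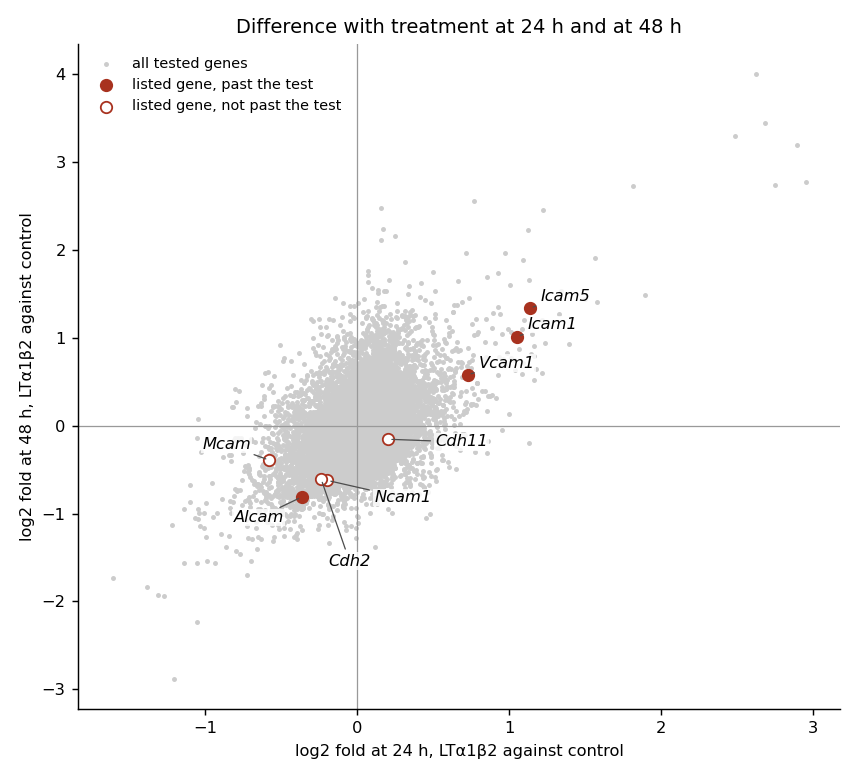
Log2 fold of treated against control at 24 h (horizontal) and at 48 h (vertical) for the 12160 tested genes in grey and the 8 adhesion genes in red, filled where the additive limma fit passed 0.05. Icam5, Icam1 and Vcam1 lie at the upper right edge of the grey cloud, Alcam, Mcam, Cdh2 and Ncam1 at the lower left within it, and Cdh11 near the centre.

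The 4 genes whose folds were lowest at 48 h relative to 24 h are also those with the longest transcripts. The fold at 48 h divided by the fold at 24 h was 0.741 (0.663 to 0.829) for Ncam1, 0.728 (0.614 to 0.863) for Alcam, 0.772 (0.693 to 0.861) for Cdh2 and 0.779 (0.752 to 0.807) for Cdh11, with 95% intervals from counting error alone. For Vcam1 it was 0.901 (0.859 to 0.947), and for Icam1, Icam5 and Mcam the intervals included 1. The principal transcripts of Cdh2, Cdh11, Alcam and Ncam1 are 4843 to 6050 bases long, and those of the other 4 genes 2535 to 3469 bases. The median log2 fold of all 1082 tested genes within 4843 to 6050 bases was 0.02 at 24 h and -0.24 at 48 h, against 0.02 and -0.09 over all tested genes. With the length trend removed from each library, the 48 h log2 folds were -0.36 for Ncam1 instead of -0.62, -0.55 for Alcam instead of -0.81 and -0.40 for Cdh2 instead of -0.61. That of Cdh11 was 0.09 instead of -0.16, so its direction at 48 h turned. That of Vcam1 was 0.70 instead of 0.58. In the additive fit with the length trend removed, Vcam1, Icam1, Icam5 and Alcam were called as before (3.57% of all genes higher and 2.83% lower), with log2 folds of 0.71, 1.05, 1.27 and -0.46.

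In control cells the 8 genes differed little between 24 h and 48 h. Ncam1 at 48 h was 0.862 of its 24 h level (0.803 to 0.925), Cdh11 was 1.08-fold (1.06 to 1.11) and Vcam1 1.04-fold (1.005 to 1.08), and the intervals of the other 5 genes included 1. In treated cells Ncam1 at 48 h was 0.639 of its 24 h level (0.585 to 0.698), Cdh2 0.785 (0.720 to 0.855), Alcam 0.80 (0.697 to 0.917), Cdh11 0.843 (0.822 to 0.865) and Vcam1 0.940 (0.911 to 0.970). For Icam1, Icam5 and Mcam the intervals included 1. None of the 8 was 2-fold apart between the times in either treatment. Over all genes 0.00822% were 2-fold higher and 0.0247% lower at 48 h in control, and 1.04% and 0.428% in treated cells. These ratios share libraries with those of treatment.

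Levels were compared between genes per kilobase of principal transcript. Cdh11, at 151 to 179 CPM per kilobase over the 4 libraries, and Vcam1, at 108 to 179, were the highest of the 8 genes and overlapped. In control Cdh11 was above Vcam1 at both times (156 and 168 against 108 and 113 CPM per kilobase). In treated cells the 2 were level at 24 h (179 and 179), and Vcam1 was the higher at 48 h (169 against 151). From 24 h to 48 h in treated cells the log2 change was -0.25 for Cdh11 and -0.09 for Vcam1. With the length trend removed these were 0.06 and 0.09, so the gap between the 2 changes depends on the length trend of that library. Levels per kilobase with the length trend removed were not compared. Cdh2 (15.5 to 23.8) and Ncam1 (10.8 to 19.5) came next and overlapped, then Alcam (4.92 to 8.75), Icam5 (1.15 to 3.59), Mcam (0.714 to 1.23) and Icam1 (0.301 to 1.29), of which Icam5, Mcam and Icam1 overlapped in turn. Among 24 tested adhesion genes of the immunoglobulin family Vcam1 was the third by mean level per kilobase, behind Bsg and Nptn, and Icam1 the last. In control at 24 h Vcam1 was just below Cd47, and in both treated libraries Icam1 was above Mcam and Cxadr. Vcam1 made up 9.56% and 9.78% of the summed level of this family in control and 15.7% and 15.0% in treated cells at 24 h and 48 h. Cd47, at nearly the same level as Vcam1 in control (110 and 111 CPM per kilobase), was at 133 and 134 CPM per kilobase in treated cells. Cdh11 ranked first among 14 tested cadherin genes and Cdh2 was the fifth. The share of Cdh11 in the summed level of that family was 35.9% and 38.1% in control and 40.7% and 43.3% in treated cells. Its share at 48 h was higher although its own level was lower, 151 CPM per kilobase with LTα1β2 against 168 in control. The share of Cdh2 was 5.40% and 5.39% in control against 4.50% and 4.46% in treated cells.

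**Figure D4:**
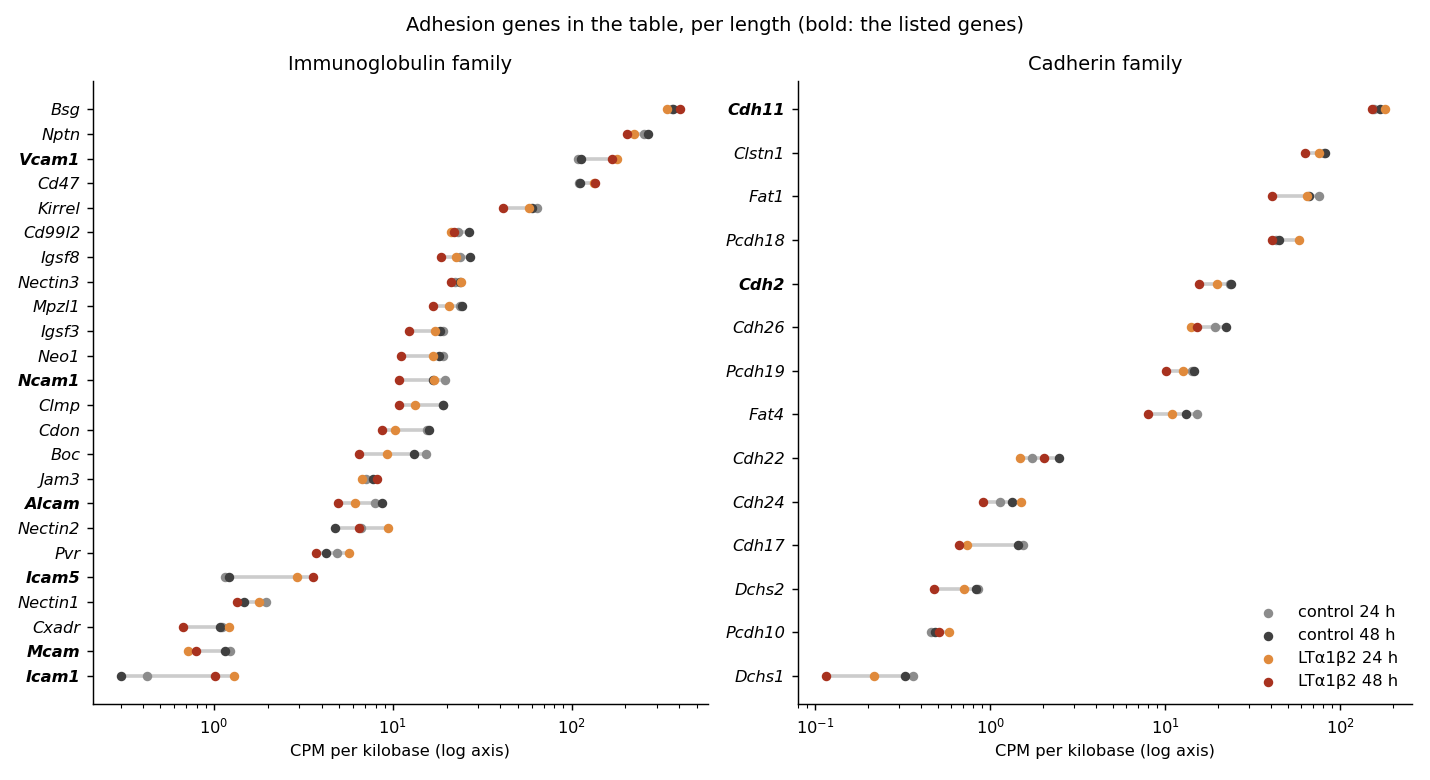
CPM per kilobase of principal transcript (log axis) of the 24 immunoglobulin-family and 14 cadherin-family genes tested, ordered by mean, 1 point per library, the listed genes in bold. Vcam1 and Cdh11 are near the top of their families and Icam1 has the lowest mean of its own. Control and treated points of Vcam1, Icam1 and Icam5 are apart, as are those of other genes of the family. Of these, Cd47 is higher in treated cells. Lower in treated cells are Nptn, Kirrel, Cd99l2, Igsf8, Mpzl1, Igsf3, Neo1, Clmp, Cdon, Boc, Alcam and Mcam, so such separation is common in this family.

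In the rest of the immunoglobulin family no tested gene rose, a count near the share over all genes. Of 56 other genes listed 18 were tested, with median log2 folds of -0.12 at 24 h and -0.45 at 48 h. Over all tested genes the medians were 0.02 and -0.09, also the background for the lists below. Among the 18, 0 rose and 3 fell, where 2.92% of all genes rose and 2.27% fell. The 3 were Boc and Cdon, co-receptors of Hedgehog signalling, and Clmp. Boc stood at 68.3 and 58.8 CPM in control and at 41.0 and 29.0 CPM with LTα1β2, or at 0.601 (0.544 to 0.664) and 0.493 (0.432 to 0.561) of control (limma, adjusted p = 7.85e-05). Cdon was at 0.656 and 0.547 of control and Clmp at 0.696 and 0.566. With 9.8 prior degrees of freedom 0 of the 18 passed, with the length trend removed 4 fell, and without the LTα1β2 48 h library, in a fit with no time term that called 3.31% of all genes higher and 3.04% lower, 2 rose and 3 fell.

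Other cadherin genes were likewise lower or did not pass. Of 48 listed 12 were tested, with medians of -0.22 and -0.53, against 0.02 and -0.09 over all tested genes. Folds at 48 h declined with length, and the principal transcripts of Fat4 and Dchs1 are 16109 and 10754 bases long. Among the 12, 0 rose and 3 fell, where 2.92% of all genes rose and 2.27% fell. Fat4, a giant atypical cadherin, had 244 and 212 CPM in control and 175 and 128 CPM with LTα1β2, 0.720 (0.685 to 0.757) and 0.603 (0.565 to 0.642) of control (limma, adjusted p = 0.0136). Dchs1, which encodes the ligand of Fat4, was at 0.603 (0.386 to 0.926) and 0.351 (0.178 to 0.650) of control from 3.88 and 3.51 CPM. Cdh17 was at 0.477 and 0.461 of control from 5.31 and 4.96 CPM. With the length trend removed 0 of the 12 rose and 3 fell, where 3.57% of all genes were called higher and 2.83% lower. With 9.8 prior degrees of freedom and with median-of-ratios rescaling 0 of the 12 passed, and without the LTα1β2 48 h library 1 rose and 3 fell.

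Among catenins and other anchors of cadherins 11 of 14 were tested, with medians of -0.11 and -0.29. Of these 0 rose and 2 fell, where 2.92% of all genes rose and 2.27% fell. Vcl, which encodes vinculin, was at 195 and 251 CPM in control and at 138 and 133 CPM with LTα1β2 (0.707 and 0.529 of control; limma, adjusted p = 0.0021). Ctnnd1, which encodes p120 catenin, was at 0.738 and 0.581 of control. With 9.8 prior degrees of freedom 0 passed, and with median-of-ratios rescaling 1 fell. Of 11 tested cytoskeletal anchors of the immunoglobulin family and 11 tested sheddases, the proteases that cut such molecules from the surface, 0 rose and 0 fell. Such counts are near the shares over all genes. Of 3 tested genes of NCAM polysialylation and 3 of selectins and their ligands, none passed either, although 1 of the latter rose once the length trend was taken out, and 1 when the LTα1β2 48 h library was left out.

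Of 19 counter-receptors and partners of the listed molecules 10 were tested, with medians of -0.18 and -0.54. Of these 0 rose and 3 fell, where 2.92% of all genes rose and 2.27% fell. Itga9, whose integrin binds VCAM-1, had 13.1 and 16.2 CPM in control and 9.68 and 6.25 CPM with LTα1β2, 0.737 (0.592 to 0.915) and 0.386 (0.291 to 0.508) of control (limma, adjusted p = 0.00141). Lama4, a laminin chain gene whose protein MCAM binds, was at 0.769 and 0.595 of control. Nrp1 was at 0.792 and 0.581. With 9.8 prior degrees of freedom, and with median-of-ratios rescaling, 0 of the 10 passed. The leukocyte integrin genes Itga4, Itgal, Itgam and Itgb2 and the ALCAM receptor gene Cd6 were not analysed here.

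Patterns over the 4 libraries were compared by the distance between profiles of log2(CPM + 1), each centred on its own mean, among 11017 genes with an informative symbol. Nearest to Vcam1 were Tnip1 (distance 0.0957), Maff (0.106) and Tapbp (0.109), and 35 genes lay within 0.2. Nearest to Icam1 were Nfkb2 (0.173), Ang (0.187) and Mt2 (0.191), and nearest to Icam5 Il1rl1 (0.112), Tmem176a (0.178) and Dtx4 (0.178), with 5 genes within 0.2 of each. The patterns of the other genes were common. There were 103 genes within 0.2 of Mcam, 200 of Alcam, 450 of Ncam1, 740 of Cdh2 and 2288 of Cdh11. Among their nearest genes were Prss23 and Klhdc8a for Mcam, Paqr8 and Nrp1 for Alcam, and Dop1b, Trerf1 and Atxn2l for Ncam1. For Cdh2 they were Anpep, Grb10 and Reep3, and for Cdh11 Rmnd5a, Mecr and Ccdc127. With 4 points a profile, such likeness is a description.

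**Figure D5:**
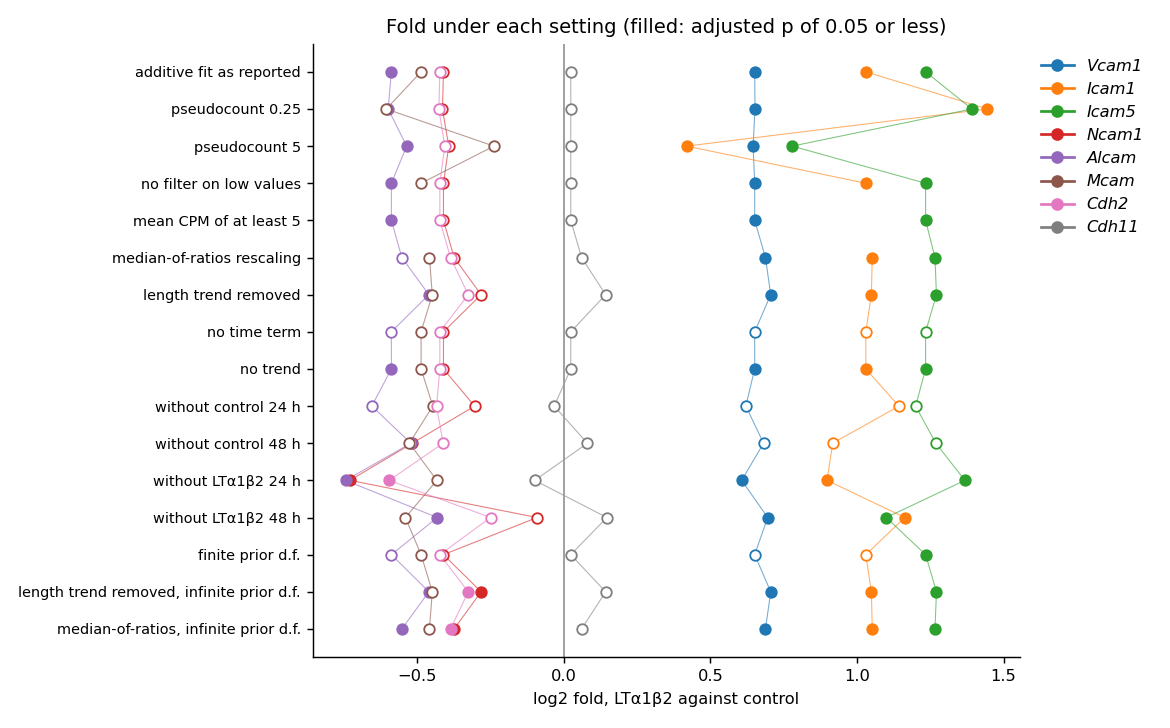
Log2 fold of treated against control (horizontal) for each gene under the reported fit and 15 other settings (rows); filled points had an adjusted p of 0.05 or less in limma, and lines join the points of a gene. Vcam1, Icam1 and Icam5 stay above 0 and Alcam, Ncam1, Mcam and Cdh2 below 0 in every row where they were tested, Cdh11 crosses 0, and the calls are lost without a time term, without either control library and, except for Icam5, with the prior of the rescaled fit on the deposited values; that of Alcam is also lost with rescaling.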

How the data were processed

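RNA sequencing libraries were made with a kit that keeps the strand and read from both ends, per the labels' protocols. Values for 12208 genes were deposited as CPM, counts scaled to 1000000. The aligner, counter, build and annotation were not given in the sources used here. The tool edgeR 3.30.0 is named in the submitters' processing notes. Each column sums to 1000000. The step between low CPM values gave the worth of 1 read, and 100% of values were whole multiples of it within 0.01 read. The lowest value was 9 to 12 reads, so genes silent in a library were not analysed here.

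Symbols, places and principal transcript lengths came from GENCODE M21 (12205 identifiers matched without version). Genes with a mean of at least 1 CPM were fitted with limma 3.58.1 (R 4.3.3) on log2(CPM + 1), which understates changes of low genes, with time as a term, 1 residual degree of freedom, trended empirical Bayes and Benjamini-Hochberg at 0.05. P-values measure only the spread between these libraries, which nothing says came from separate cultures. Counting intervals are exact (95%; Clopper-Pearson for ratios, Poisson for levels; scipy 1.17.1), except that ratios of folds used a normal approximation. The fit was tested on simulated data with no time effect and no length trend, so the simulation does not test the calls made here. The members and lists were chosen with earlier results of these data known. Named genes were the 8 members, up to 4 called genes per list and direction by size of fold, and the 3 nearest in pattern to each member, of which some are not reported here; other genes named, such as Bsg, Nptn and Cd47, were chosen after their values were seen. Alternatives changed the pseudocount, filter, fold threshold, scaling, length trend, prior degrees of freedom, time term and trend, or left out a library. An edgeR test on recovered reads was planned but not run.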

Additional observations from a re-analysis of the deposited data

Results flagged for a closer look

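Cdh11 and Vcam1 were marked because a contrast had opposite directions in 2 groups, each beyond counting error, with 1 library in each group. The difference between the groups was not tested. Cdh11 had a log2 fold of 0.20 with LTα1β2 at 24 h and of -0.16 at 48 h. From 24 h to 48 h its log2 change was 0.11 in control and -0.25 in treated cells. Vcam1 changed by 0.060 in control and by -0.089 in treated cells over the same interval. These 2 contrasts of time share the libraries of the contrasts of treatment. With the length trend removed, both genes were higher at 48 h than at 24 h in treated cells as in control (0.064 for Cdh11 and 0.088 for Vcam1 in treated cells).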

How the results depend on the processing

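Pairing by replicate or culture was not possible, because each group is 1 library and the labels give no replicate numbers to block on. The reported fit has time as a term and so pairs treated with control within each time. The 355 genes higher and 276 lower became 95 and 84 with median-of-ratios rescaling (809 and 459 at infinite prior degrees of freedom), 39 and 25 with the prior degrees of freedom of that fit (9.8) on the deposited values, 20 and 11 without a time term, where the prior also became finite (6.3), and 1022 and 727 with the length trend removed at infinite prior degrees of freedom. Leaving out 1 library, which also drops the time term, gave 16 to 1886 higher and 6 to 3063 lower. Of the 8 adhesion genes, 3 higher and 1 lower became 0 and 0 without a time term, 1 and 0 with the deposited values and 9.8 prior degrees of freedom, and 3 and 0 with rescaling. With rescaling or length-trend removal at infinite prior degrees of freedom, both chosen after seeing the data, 3 were higher and 3 lower, since Ncam1 (-0.37 and -0.28) and Cdh2 (-0.39 and -0.33) passed too. With 1 library left out, 1 side of the comparison is 1 library, so for the 8 genes only log2 folds are given below. Without a time term, and with 9.8 prior degrees of freedom on the deposited values, log2 folds were as reported but the calls of Vcam1 (0.65), Icam1 (1.03) and Alcam (-0.59) were lost, and that of Icam5 (1.23) was lost without a time term. The call of Alcam was also lost with rescaling (-0.55). Over the libraries left out, log2 folds ran from 0.61 to 0.70 for Vcam1, 0.90 to 1.16 for Icam1, 1.1 to 1.37 for Icam5, -0.73 to -0.091 for Ncam1, -0.74 to -0.43 for Alcam, -0.60 to -0.25 for Cdh2 and -0.10 to 0.15 for Cdh11. Cdh11 turned negative without control at 24 h (-0.03) and without LTα1β2 at 24 h (-0.10). With a mean of at least 5 CPM Icam1 and Mcam were not tested.

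The 42 genes 2-fold higher at 24 h became 180 at 1.5-fold and 19 with a pseudocount of 5, and the 22 lower became 164, 5, and 44 with a pseudocount of 0.25. At 48 h the 226 higher became 899 at 1.5-fold, 126 with a pseudocount of 5 and 145 with the length trend removed, and the 87 lower became 764, 28, and 156 with a pseudocount of 0.25. Of the folds of the 8 genes at 24 h, 32 of 32 alternatives moved the log2 fold by no more than the distance from the middle of its 95% counting interval to either end, and at 48 h 25 of 32 did; with a pseudocount of 5 Icam1 (0.45 and 0.39) and Icam5 (0.70 and 0.86) were nonetheless under 2-fold. With the length trend removed Cdh11 turned at 48 h (0.093), and from 24 h to 48 h in treated cells Vcam1 (0.088), Alcam (0.015) and Cdh11 (0.064) turned, as did Vcam1 with rescaling (0.049). The cause of these changes was not tested. Few reads limit Icam1, Icam5 and Mcam.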
